A study of Mus musculus with 2 samples.

Results

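Mucin-type and terminal glycosyltransferases are the enzymes, most of them in the Golgi, that start, build and cap sugar chains on proteins and lipids. The 79 genes described here were picked by a rule on gene names, as all protein-coding genes of the Galnt, C1galt1, Gcnt, B3gnt, B3galt, B4galt, B4galnt, Fut, St3gal, St6gal, St6galnac and St8sia families in both deposited gene tables, out of 21474 protein-coding genes and 43346 Ensembl entries in all. They were measured in total RNA from the intestine of B6NCrl mouse embryos at embryonic day 15.5. There is 1 group of 2 libraries, replicate 1 from a pool of 78 embryos and replicate 2 from a pool of 62, each pool of both sexes. No treatment, mutation or second tissue was analysed here, so a value averages over many embryos and all gut layers, and no differential test was possible.

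Mucin-type chains begin when a Galnt enzyme places N-acetylgalactosamine on a serine or threonine. C1galt1 then adds galactose to make core 1, Gcnt enzymes branch it to core 2, and B3gnt6 makes core 3 in its place. B3gnt and B4galt enzymes lengthen the chain with N-acetylglucosamine and galactose, and fucose and sialic acid cap it. Many of these caps also sit on N-linked chains and glycolipids. In the gut the finished chains coat the secreted mucus of goblet cells and the brush border of enterocytes.

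Levels are given as TPM, a relative abundance corrected for transcript length and scaled to the same total in each library, as replicate 1 and replicate 2 in that order or as the mean ± SD of both (n = 2 throughout). The libraries held 34406900 and 40669800 estimated counts, of which the 79 genes took 60458 and 72034. For a transcript of 1 kilobase, 3 counts amount to 0.125 and 0.107 TPM. The epithelial markers used to check the label (Epcam, Cdh1, Krt8, Krt18, Lgals4, Vil1 and Cdx2) were all detected, with a summed level of 3272 and 3110 TPM. Exocrine pancreas markers were present too and unequal, at a summed 5809 and 2031 TPM over 9 genes, of which all 9 were higher in replicate 1 and none was at 0.

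Together the 79 genes reached 950.4 and 955 TPM (mean 953 ± 3.57), or 0.0950 and 0.0955% of all TPM. A level of at least 1 TPM in both libraries, called detected below, was reached by 59 genes (74.7%), against 62.7% of all protein-coding genes. A level of at least 10 TPM in both was reached by 32 genes (40.5%), against 40.1%, a share near the background. Only St3gal4 stood above 100 TPM in both libraries, against 7.21% of all protein-coding genes. The median was 7.14 and 7.31 TPM over all 79 genes, beside 5.04 and 5.04 TPM over all protein-coding genes. Among detected genes the order was reversed, with 11.7 and 11.8 TPM for the glycosyltransferases beside 17.7 and 17.8 TPM for all. The 10 highest members held 46.9 and 47.3% of the summed level, and 19 members were below 1 TPM in both libraries.

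**Figure D1:**
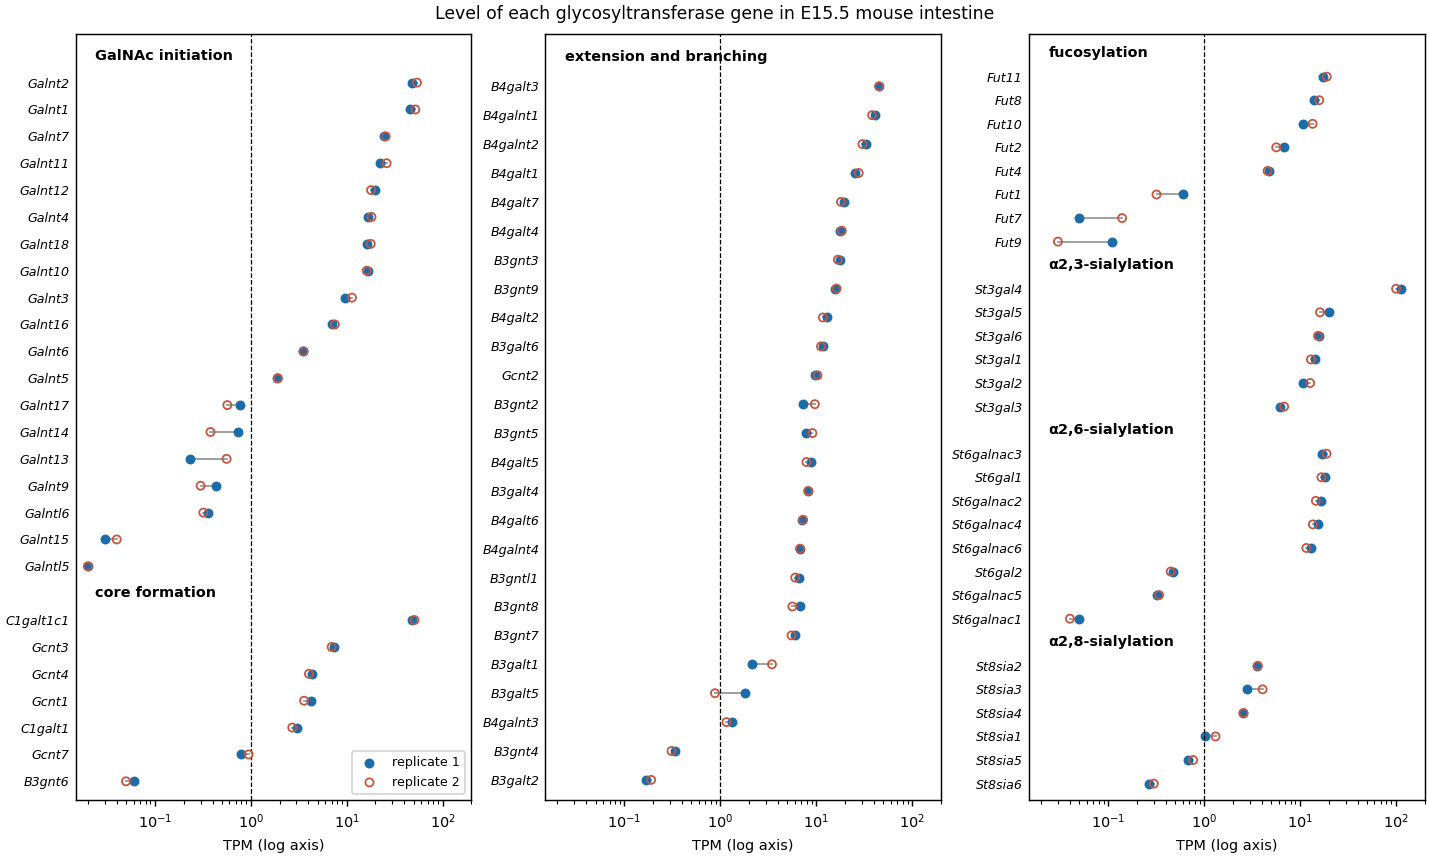
TPM of each of the 79 genes (log axis), grouped by role and ordered by mean level. Filled points are replicate 1, open points replicate 2, the dashed line marks 1 TPM, and Galntl5, listed at 0, is drawn at 0.02. St3gal4 stands alone above 100 TPM, and most pairs of points lie close together except among genes below 1 TPM.

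Extension and branching enzymes held the highest summed level, at 320.0 and 317 TPM over 25 genes. Roles were set by gene name, and this role also takes in genes of glycolipids, such as B4galnt1, and of the proteoglycan linker, such as B4galt7. Its first place therefore holds for this grouping only. The Galnt initiators summed to 235 and 255 TPM over 19 genes and the α2,3-sialyltransferases to 181 and 165 TPM over 6 genes. The α2,6-sialyltransferases reached 81.5 and 76.7 TPM over 8 genes, the core-forming genes 68.0 and 69.4 TPM over 7 genes, and the fucosyltransferases 54.6 and 59.4 TPM over 8 genes. The α2,8-sialyltransferases were lowest at 10.9 and 12.7 TPM over 6 genes. The order of these 7 sums was the same in both libraries. In a bulk sample, fewer cells of a type and less RNA per cell cannot be told apart, so none of these sums gives a level per epithelial cell.

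**Figure D2:**
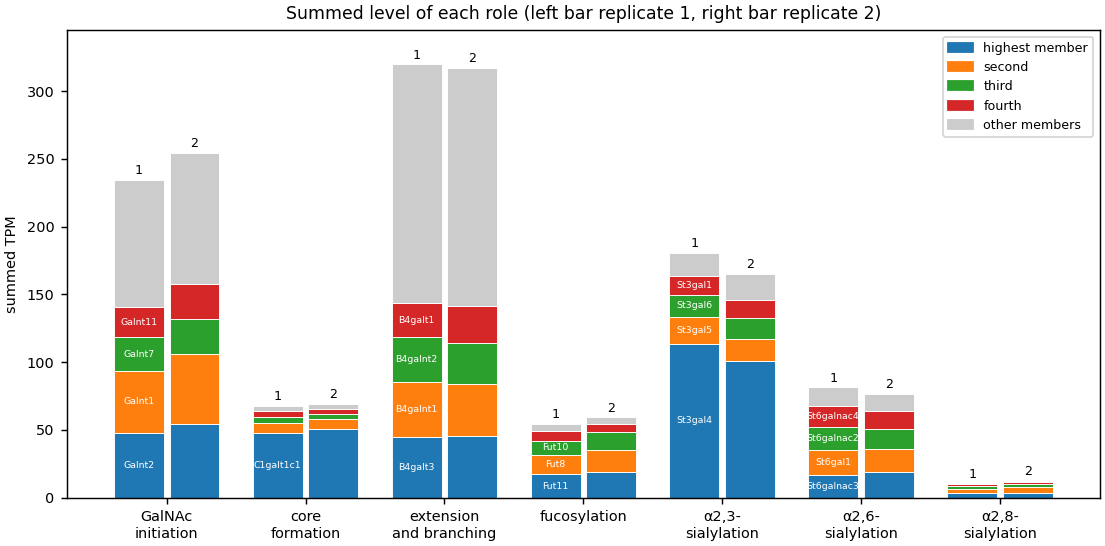
Summed TPM of the genes of each role, with the left bar of each pair for replicate 1 and the right bar for replicate 2. Colours mark the 4 highest members of each role and grey the rest. St3gal4 fills most of the α2,3-sialylation bar and C1galt1c1 most of the core formation bar, while initiation and extension are divided among many genes.

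Initiation was shared among many isoenzymes. Galnt2 (ENSMUSG00000089704.5, chromosome 8, 124231391 to 124345724, plus strand of mm10) stood at 48.0 and 54.1 TPM (mean 51.0 ± 4.36) and Galnt1 at 45.6 and 52.1 TPM (mean 48.8 ± 4.60), both enzymes of wide acceptor range. The values of this pair overlapped between the libraries, although Galnt2 was the higher in each. In counts not divided by length Galnt1 was the higher in both, at 3947 and 5317 counts against 3440 and 4425 for Galnt2. This order thus rests on the correction for length, and also on a processed transcript. The coding Galnt2-201 held 34.4 and 37.8 TPM and the processed Galnt2-204 13.6 and 16.3 TPM. The coding Galnt1-208 held 29.5 and 33.0 TPM and the coding Galnt1-206 9.24 and 13.3 TPM, together above Galnt2-201 in both libraries. Galnt2 held 20.4 and 21.3% of the initiator sum and Galnt1 19.4 and 20.5%. Galnt7, which acts on peptides that already carry a sugar, followed at 24.7 and 25.6 TPM, and Galnt11 at 22.4 and 26.1 TPM. Galnt12, a gene known in human for expression in the digestive tract, was at 19.7 and 17.99 TPM. Galnt4 was at 16.6 and 18.2 TPM, Galnt18 at 16.1 and 17.9 TPM, Galnt10 at 16.9 and 16.2 TPM and Galnt3 at 9.66 and 11.4 TPM. From Galnt12 to Galnt10 no gene was separated from the next by both library values. Galnt16 was at 7.03 and 7.54 TPM, Galnt6 at 3.54 and 3.55 TPM and Galnt5 at 1.87 and 1.92 TPM. In all 12 of 19 initiators were detected, a share near the 62.7% of all protein-coding genes.

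The other 7 initiators stayed below 1 TPM in both libraries, at most 0.77 TPM. Among them were Galnt17, Galnt14, Galnt13, Galnt9 and Galntl6, each with 18 to 54 estimated counts per library, and Galnt15, with 5 counts in each. Galntl5, known in mouse as a testis gene, was listed at 0 in both libraries, where 3 counts would correspond to 0.0867 and 0.0745 TPM. Galntl5 lies only 1.61 kilobases before Galnt11 on the same strand of chromosome 5, so adjacent loci of the family stood at 0 and at a mean of 24.3 TPM. The RefSeq promoter windows of both genes (250 bases before to 50 after the start, GRCm38.p6, plus strand) are shown because these neighbours differ so much in level. The Galntl5 window, chr5:25181230-25181529, holds 0 CpG dinucleotides, and that of the main Galnt11 start, chr5:25222622-25222921, holds 23. A second Galnt11 start lies downstream, chr5:25246123-25246422, and holds 7. Capitals mark the GC box letters GGGCGG, searched on both strands.
Galntl5: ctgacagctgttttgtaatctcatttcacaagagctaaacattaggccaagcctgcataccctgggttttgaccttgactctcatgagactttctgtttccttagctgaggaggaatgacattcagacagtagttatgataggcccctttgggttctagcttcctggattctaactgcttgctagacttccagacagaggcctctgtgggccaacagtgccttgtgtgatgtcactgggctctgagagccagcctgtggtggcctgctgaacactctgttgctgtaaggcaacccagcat
Galnt11, upstream start: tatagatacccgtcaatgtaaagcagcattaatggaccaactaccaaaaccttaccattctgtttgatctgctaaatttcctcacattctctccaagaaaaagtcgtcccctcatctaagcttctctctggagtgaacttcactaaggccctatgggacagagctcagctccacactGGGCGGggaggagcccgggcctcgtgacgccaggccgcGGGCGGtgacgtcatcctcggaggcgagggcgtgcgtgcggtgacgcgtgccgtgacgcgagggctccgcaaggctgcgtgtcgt
Galnt11, downstream start: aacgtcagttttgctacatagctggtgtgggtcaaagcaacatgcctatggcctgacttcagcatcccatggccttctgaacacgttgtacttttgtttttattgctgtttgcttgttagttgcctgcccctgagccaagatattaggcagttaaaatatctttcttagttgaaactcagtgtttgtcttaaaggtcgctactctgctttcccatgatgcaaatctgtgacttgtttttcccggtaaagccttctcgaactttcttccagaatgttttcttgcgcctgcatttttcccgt
Transcript Galnt11-201, which begins 10 bases from the upstream start, held 14.4 and 22.4 TPM, or 64.3 and 85.9% of the gene. Galnt11-203, which begins at the downstream start, held 6.76 and 3.57 TPM, or 30.2 and 13.7%. The upstream form was thus the higher in both libraries, by unequal margins.

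Core formation showed a wide gap between an enzyme and its chaperone. C1galt1c1 (Cosmc, ENSMUSG00000048970.9, chromosome X, 38630785 to 38635087, minus strand), the endoplasmic reticulum chaperone that C1galt1 needs to fold, stood at 48.0 and 51.0 TPM (mean 49.5 ± 2.12). C1galt1 itself, the only core 1 galactosyltransferase, was at 3.07 and 2.71 TPM. The level of the chaperone message was therefore 15.6 and 18.8 times that of the enzyme, and C1galt1c1 alone held 70.7 and 73.6% of the summed level of the 7 core genes. In counts not divided by length its share was 46.4%. Among the branching enzymes, Gcnt3, the mucin-type enzyme for core 2 and core 4, was highest at 7.42 and 6.98 TPM. Gcnt4 followed at 4.35 and 4.04 TPM and Gcnt1, the widely expressed core 2 enzyme, at 4.25 and 3.60 TPM, and the values of these 2 genes overlapped. Gcnt7 lay just under the detection limit at 0.79 and 0.95 TPM. B3gnt6, the core 3 synthase known from adult colon, was at 0.06 and 0.05 TPM with 3 counts in each library, so it sat at the limit of this depth.

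Extension was led by galactosyltransferases and by a pair of N-acetylgalactosaminyltransferases. B4galt3 was at 44.8 and 45.3 TPM, although by counts its share of the role was 9.18% and it stood behind B4galt1 and B4galnt1. Its main coding transcript, B4galt3-201, held 28.7 and 27.0 TPM, below the only listed transcript of B4galnt1, which is coding. Retained-intron and processed transcripts of B4galt3 held part of the rest. The level of B4galt1, the founding enzyme of N-acetyllactosamine synthesis, was 25.1 and 27.8 TPM. B4galnt1, which makes the gangliosides GM2 and GD2, was at 40.6 and 38.3 TPM. B4galnt2, the Sd(a) antigen synthase known from intestinal epithelium, was at 33.2 and 30.4 TPM, which is 24.8 and 26.2 times its paralog B4galnt3 at 1.34 and 1.16 TPM. B4galt4 (17.9 and 18.5 TPM) and B4galt2 (13.0 and 11.8 TPM) also exceeded 10 TPM. So did B4galt7 (19.3 and 18.2 TPM) and B3galt6 (11.7 and 11.2 TPM), which build the linker that joins proteoglycan chains to their core proteins.

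Among the N-acetylglucosaminyltransferases, B3gnt3, which extends core 1, stood at 17.9 and 16.9 TPM and B3gnt9 at 15.7 and 16.3 TPM. B3gnt2, the main enzyme of poly-N-acetyllactosamine, was at 7.21 and 9.69 TPM, and its partner B3gnt8 at 6.76 and 5.65 TPM. B3gnt5, which opens the lacto-series of glycolipids, was at 7.76 and 9.13 TPM. Of the lactosylceramide synthases, B4galt5 was at 8.92 and 7.92 TPM and B4galt6 at 7.14 and 7.31 TPM, and B3galt4, which makes ganglioside GM1, at 8.20 and 8.26 TPM. The type 1 chain enzymes were low, with B3galt1 at 2.14 and 3.46 TPM, B3galt5 at 1.80 and 0.88 TPM and B3galt2 at 0.17 and 0.19 TPM. B4galnt4, B3gntl1 and B3gnt7 lay between 5.53 and 6.86 TPM, and B3gnt4 at 0.34 and 0.31 TPM. In all 22 of the 25 genes were detected, beside 62.7% of all protein-coding genes, and only B3gnt4 and B3galt2 were below 1 TPM in both libraries.

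Gcnt2, the enzyme of I-type branches, stood at 9.66 and 10.3 TPM and is known to make alternative proteins from separate first exons that share the later exons. Its 3 transcripts begin at separate sites on chromosome 13. Gcnt2-203, from the first site, held 61.1 and 60.9% of the gene (5.90 and 6.28 TPM). Gcnt2-201, from the last site, held 29.5 and 22.2% (2.85 and 2.29 TPM), and Gcnt2-202, from the middle site, held 9.44 and 16.9% (0.91 and 1.75 TPM). The order of the 3 transcripts was the same in both libraries. The RefSeq windows at these starts (GRCm38.p6, plus strand) are chr13:40859518-40859817, chr13:40886508-40886807 and chr13:40917384-40917683. They are shown because they differ in base content, with 8, 6 and 13 CpG dinucleotides. The RefSeq start lies 14, 435 and 33 bases from the start of the transcript in these tables. Capitals mark a GC box, which stands only in the last window of the 3.
Gcnt2, first site: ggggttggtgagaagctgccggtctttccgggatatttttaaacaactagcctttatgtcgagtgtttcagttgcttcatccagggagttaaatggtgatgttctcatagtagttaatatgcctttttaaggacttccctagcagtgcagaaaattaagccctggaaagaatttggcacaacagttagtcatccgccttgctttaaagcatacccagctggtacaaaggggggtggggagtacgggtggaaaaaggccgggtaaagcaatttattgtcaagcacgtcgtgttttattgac
Gcnt2, middle site: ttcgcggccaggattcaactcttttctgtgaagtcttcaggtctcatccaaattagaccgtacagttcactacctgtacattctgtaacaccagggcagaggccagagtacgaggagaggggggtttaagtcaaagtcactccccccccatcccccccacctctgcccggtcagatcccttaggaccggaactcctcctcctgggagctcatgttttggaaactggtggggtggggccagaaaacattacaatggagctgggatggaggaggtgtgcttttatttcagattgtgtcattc
Gcnt2, last site: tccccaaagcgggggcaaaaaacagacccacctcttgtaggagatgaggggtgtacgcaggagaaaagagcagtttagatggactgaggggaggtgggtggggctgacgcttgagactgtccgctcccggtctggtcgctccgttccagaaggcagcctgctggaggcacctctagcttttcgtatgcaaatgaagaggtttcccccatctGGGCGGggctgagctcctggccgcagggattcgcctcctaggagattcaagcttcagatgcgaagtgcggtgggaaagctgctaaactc

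Fucosyltransferases were led by genes other than those of the H and Lewis antigens. Fut11 was at 17.3 and 19.1 TPM, Fut8, which adds the core fucose of N-linked chains, at 14.0 and 15.9 TPM, and Fut10 at 10.8 and 13.6 TPM. Fut2, the secretor enzyme of gut epithelium that makes the H antigen, was at 6.87 and 5.68 TPM. Its neighbour Fut1, which makes the same antigen and lies 27.5 kilobases away on chromosome 7 on the other strand, was at 0.61 and 0.32 TPM. Fut4, which makes the Lewis x antigen, was at 4.78 and 4.61 TPM. Fut9 had few counts, at 0.11 and 0.03 TPM (16 and 11 counts). Fut7 had fewer, at 0.05 and 0.14 TPM (2 and 4 counts). At each of the 4 steps in the order from Fut11 down to Fut4, the library values of the neighbours did not overlap. Genes were ordered by the mean of these same libraries, and over all roles 35 of 53 such neighbouring pairs did not overlap.

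Among sialyltransferases a single gene stood out. St3gal4 (ENSMUSG00000032038.6, chromosome 9, 35046576 to 35119268, minus strand) adds α2,3-linked sialic acid to N-acetyllactosamine and was the highest of the 79 genes at 114 and 101 TPM (mean 107 ± 9.03). It held 62.9 and 61.0% of the summed level of the St3gal genes. St3gal6, which shares this acceptor, was at 15.8 and 15.5 TPM, so St3gal4 was 7.20 and 6.52 times as high. St3gal5, which makes ganglioside GM3, was at 19.9 and 16.2 TPM. The enzymes that sialylate core 1 were lower, with St3gal1 at 14.3 and 13.1 TPM and St3gal2 at 10.8 and 12.8 TPM. St3gal3 closed the order at 6.24 and 6.86 TPM. At each of the 5 steps of this order the library values did not overlap, beside 35 of 53 neighbouring pairs over all roles. Some steps were small. In replicate 2 St3gal1 was 1.02 times as high as St3gal2, and the deposited TPM intervals of these genes overlapped there. The table holds 1 St3gal4 transcript, so its level does not depend on a split between isoforms. Its RefSeq window, chr9:35116815-35117114 on the minus strand, holds 31 CpG dinucleotides and 3 GC boxes, in capitals and read here on the other strand as CCGCCC, and is shown as that of the highest gene.
St3gal4: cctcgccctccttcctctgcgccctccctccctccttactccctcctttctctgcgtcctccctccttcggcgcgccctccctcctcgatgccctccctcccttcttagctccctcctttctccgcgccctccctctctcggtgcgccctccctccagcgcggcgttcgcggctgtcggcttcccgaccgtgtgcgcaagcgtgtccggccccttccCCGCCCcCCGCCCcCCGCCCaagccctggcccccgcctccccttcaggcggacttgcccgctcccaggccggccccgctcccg

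The α2,6-sialyltransferases fell into genes above 10 TPM and genes below 1 TPM, with none between. St6galnac3 was at 16.9 and 19.0 TPM, St6gal1, which caps N-linked chains, at 18.3 and 16.8 TPM, and St6galnac2 at 16.8 and 14.7 TPM. St6galnac4 was at 15.6 and 13.7 TPM and St6galnac6 at 13.1 and 11.7 TPM. St6galnac3 and St6gal1 changed order between the libraries. The model of St6galnac3 in the tables is short, with an effective length of 819 bases, and its 332 and 434 counts made up 8.81% of the counts of this role on average, so its first place rests on the correction for length. Below 1 TPM were St6gal2 (0.48 and 0.45 TPM), St6galnac5 (0.32 and 0.34 TPM) and St6galnac1, the sialyl-Tn synthase known from adult goblet cells, at 0.05 and 0.04 TPM with 2.58 and 2.50 estimated counts. St6galnac1 lies 70.2 kilobases from St6galnac2 on chromosome 11.

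The α2,8-sialyltransferases, which make polysialic acid and the disialyl gangliosides, were all below 5 TPM. The polysialic acid enzymes St8sia2 and St8sia4, which act on the neural adhesion molecule Ncam1, were at 3.56 and 3.64 TPM and at 2.56 and 2.58 TPM. Ncam1 itself was at 52.2 and 55.5 TPM. St8sia3 was at 2.80 and 4.09 TPM and overlapped St8sia2. Just above the limit of 1 TPM stood St8sia1, the GD3 synthase, at 1.02 and 1.32 TPM, and just below it St8sia5 at 0.68 and 0.77 TPM, while St8sia6 was at 0.27 and 0.30 TPM. The ganglioside genes were therefore unequal along the pathway. B4galnt1 was 39.8 and 29.0 times as high as St8sia1, and St3gal5 19.5 and 12.3 times.

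Expression was divided among transcripts in many members. Of the 60 members with a mean of at least 1 TPM, 20 have 1 transcript in the tables and 40 have more, up to 14. The leading transcript held a median of 72.5 and 73.6% of the gene over these 40. It was the same in both libraries for 37 of them and protein-coding for 39. The exception in type was St8sia3, led by a processed transcript of 782 bases with 73.4 and 51.0% of the gene, or 43.8 and 38.1% from posterior means. The coding transcript St8sia3-201 held 0.74 and 1.08 TPM. Fut8, St6galnac4 and St3gal6 had different leaders in the libraries. In Fut8 the coding transcripts Fut8-202 (58.9 and 49.1%) and Fut8-201 (41.1 and 49.8%) were close. In St6galnac4 a retained-intron transcript, St6galnac4-202, held 40.3 and 32.5% beside 33.3 and 48.3% for the coding St6galnac4-201. In St3gal6, with 14 transcripts, no transcript reached 40% in either library. The share of Galnt6-201 was 99.4 and 64.8% although the gene itself stood at 3.54 and 3.55 TPM, but from the deposited posterior means it was 67.0 and 62.5%, so the point estimates alone set the libraries apart. A processed transcript of 511 bases, Galnt2-204, took 28.4 and 30.1% of Galnt2.

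**Figure D3:**
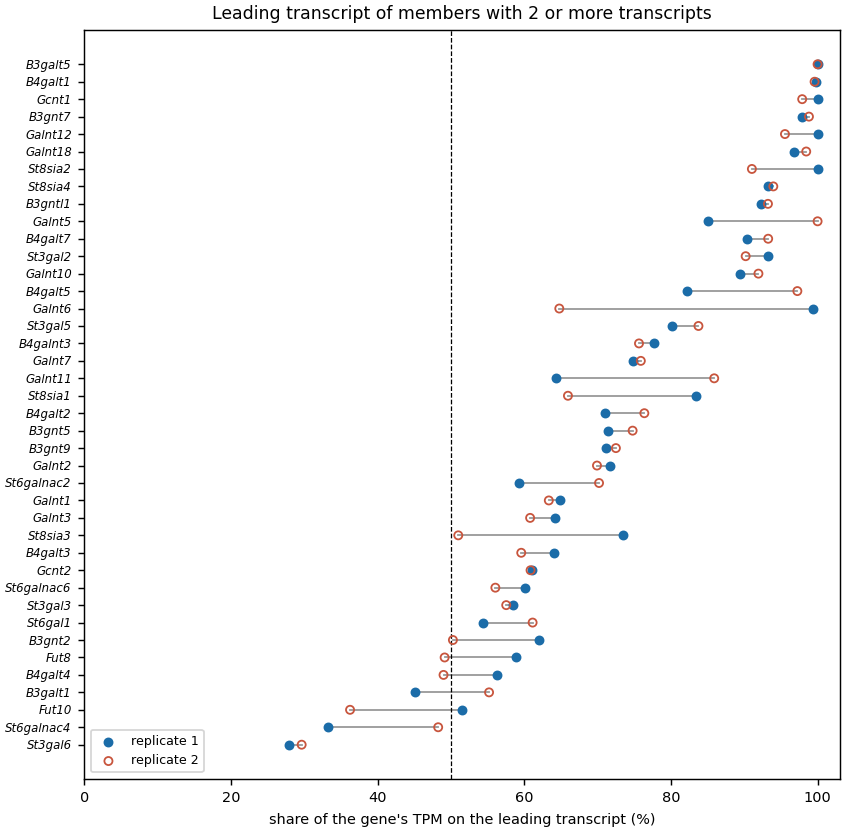
Share of the gene's TPM on the leading transcript (percent) for the 40 members with a mean of at least 1 TPM and more than 1 transcript. Filled points are replicate 1, open points replicate 2, and the dashed line marks 50%. B4galt1 lies near 100% in both libraries, St3gal6 below 30%, and Galnt11 differs widely between the libraries. Galnt6 and St8sia3 also lie apart here, but much less so from posterior means.

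Reads of some members could belong to an overlapping gene. In a search of all 79 genes, 13 shared over 10% of their 31-base words with transcripts of another gene on either strand. B3gnt4 shared 91.1% with Diablo, which lies on the opposite strand and stood at 84.0 and 85.6 TPM, so the B3gnt4 level is uncertain. Galnt2 shared 88.9% with the same-strand entry Gm20388 (3.54 and 2.08 TPM) and B3gnt2 58.4% with Gm28048 (13.6 and 11.4 TPM). The level listed for Gm28048 was above that of B3gnt2 itself in both libraries, so B3gnt2 is uncertain too. St6galnac1 shared 42.1% with Gm11735 and Galnt4 7.73% with Poc1b (17.6 and 19.6 TPM). The share was 12.1% for St3gal4 and 12.2% for B4galnt2, and 18 members shared none. It was 13.7% for B4galt3, 16.1% for B3gnt8 and 15.3% for B3gnt9, mostly with genes on the opposite strand. These were Ppox (33.4 and 31.8 TPM), Bckdha (36.8 and 34.5 TPM) and D230025D16Rik (17.1 and 18.25 TPM), in that order. Ppox was below B4galt3, but Bckdha was above B3gnt8 and D230025D16Rik above B3gnt9 in both libraries. The effect on the levels of B4galt3, B3gnt8 and B3gnt9 was not tested. The labels and tables do not say if reads were counted by strand.

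The libraries differed little for these genes. On the log2(TPM + 1) scale, replicate 1 over replicate 2, the 60 members with a mean of at least 1 TPM had a median of -0.0056, beside -0.022 for the 13677 protein-coding genes under the same filter. Of these members 29 (48.3%) were higher in replicate 1, against 43.8% of all. The median size of the difference was 0.12 for the members and 0.11 for all. No member was over 2-fold apart, against 0.592% of all, and none was over 1.5-fold apart, against 1.67%. The ratios ran from -0.51 (B3galt1) to 0.57 (B3galt5), and without the added 1 TPM B3galt5 was over 2-fold higher in replicate 1. The deposited intervals for TPM, whose level is not stated, did not overlap between the libraries for 11 of the 60 members (18.3%), against 22.7% of all protein-coding genes.

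**Figure D4:**
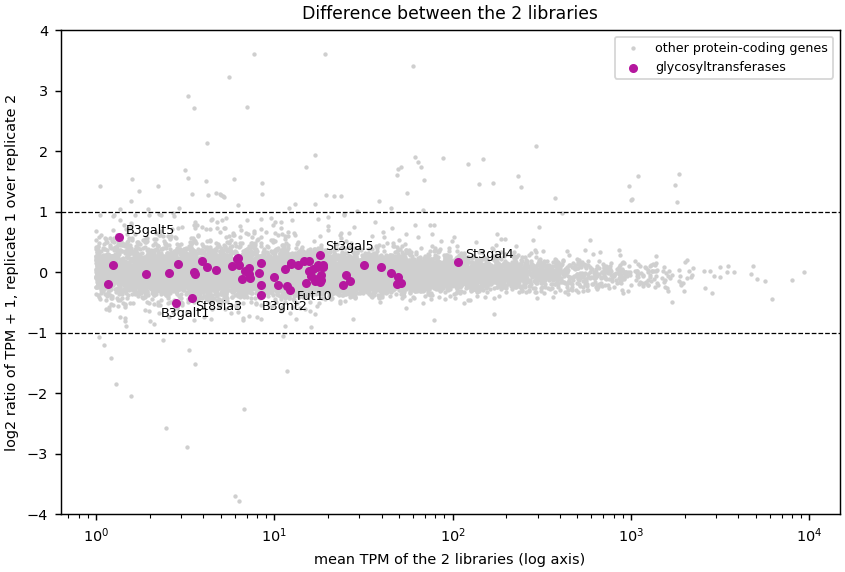
Log2 ratio of TPM + 1, replicate 1 over replicate 2, against mean TPM (log axis) for protein-coding genes with a mean of at least 1 TPM. Purple points are the 60 glycosyltransferases and grey points the other genes, and dashed lines mark 2-fold. All purple points lie between -0.51 and 0.57, inside the dashed lines.

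With intervals apart, 4 of the 60 members (6.67%) were higher in replicate 1, against 7.68% of all protein-coding genes, and 7 of the 60 (11.7%) were higher in replicate 2, against 15% of all. Both shares are near or below the background. St3gal4, St3gal5, Fut2 and B3galt5 were the ones higher in replicate 1, by 0.17, 0.28, 0.24 and 0.57 on the log2 scale. Galnt1, Galnt11, Galnt4, B4galt1, Fut11, Fut8 and Fut10 were lower in replicate 1, with Fut10 at -0.30 the farthest. Goblet markers moved with the first set, at a summed 1544 and 1194 TPM with 8 of 8 genes higher in replicate 1 and none at 0. Pancreas markers, given above, and liver markers (515 and 370.3 TPM, 7 of 7 genes higher in replicate 1, none at 0) did so as well. So did neutrophil markers (82.5 and 50.9 TPM, 4 of 4 genes, none at 0) and the summed stomach markers (18.7 and 12.9 TPM, 5 of 8 genes). Of the stomach markers 5 were below 1 TPM in both libraries, and Gkn2 and Muc5ac were at 0 in replicate 2. Mesenchyme markers moved with the second set, at 3076 and 3481 TPM with 0 of 6 higher in replicate 1 and none at 0, as did enteric neuron markers (277 and 299.8 TPM, 2 of 7 higher in replicate 1, none at 0). Enteroendocrine markers (414 and 353 TPM, 4 of 7 higher in replicate 1) and macrophage markers (275 and 250 TPM, 4 of 6) were less uniform. The sums of smooth muscle, endothelium and erythroid markers were nearly equal, at 0.996, 1.00 and 1.01 times in replicate 1 over replicate 2. The part of any of these tissues in the differences was not tested.

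Genes listed for the supply of sugars were detected throughout. All 21 measured genes of donor sugar synthesis and all 11 of sugar nucleotide transport were detected, beside 62.7% of all protein-coding genes. The donor list was led by the galactose kinase gene Galk1 (251 and 229 TPM), Gmds (149 and 145 TPM), which starts GDP-fucose synthesis, and Cmas (112 and 117 TPM), which activates sialic acid. The transport list was led by Slc35a4 (136 and 125 TPM), Slc35b1 (90.2 and 86.4 TPM) and Slc35c2 (81.6 and 70.0 TPM). Not every gene on the transport list is a known carrier of the sugars of these chains. The carriers of sugars that build and cap the chains, picked for that role after their values were seen, were Slc35a1 for sialic acid (59.3 and 51.7 TPM), Slc35a2 for galactose (27.0 and 28.0 TPM), Slc35c1 for fucose (37.0 and 31.4 TPM), and the lower Slc35a3 (15.8 and 14.97 TPM) and Slc35d2 (2.93 and 3.16 TPM) for N-acetylglucosamine. The median was 52.9 and 51.7 TPM in the donor list and 30.6 and 31.4 TPM in the transport list.

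Among acceptors and other pathways, counts of detected genes are to be read against the 62.7% of all protein-coding genes. Of 20 mucins and mucin-like proteins 13 were detected, a share near that background, led by the membrane mucin gene Muc13 (217 and 175 TPM), Cd24a (156 and 171 TPM) and the sialomucin gene Cd164 (138 and 155 TPM). The goblet mucin gene Muc2 was at 13.9 and 7.94 TPM, and 7 genes, such as Muc5ac, Muc5b and Muc6, were below 1 TPM in both libraries. Of 13 N-glycan branching genes 12 were detected, led by Man1a2 (50.6 and 53.9 TPM), Mgat1 (50.9 and 44.8 TPM) and Mgat2 (43.9 and 49.2 TPM), with Mgat5b below 1 TPM. Of 14 genes that start or extend other O-linked sugars 13 were detected, led by Ogt (91.5 and 97.7 TPM), Pofut2 (85.4 and 80.0 TPM) and Pomgnt1 (39.9 and 38.4 TPM), with Xylt1 below 1 TPM. Of 8 related transferases outside the name rule 6 were detected, led by B4gat1 (32.3 and 32.9 TPM), B3galnt2 (24.8 and 25.2 TPM) and B3galnt1 (22.1 and 27.8 TPM). A4gnt and the blood group gene Abo were below 1 TPM.

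Of 15 sulfation genes 12 were detected, led by Papss1 (118 and 124 TPM), which makes the sulfate donor, its carrier gene Slc35b2 (65.4 and 66.1 TPM) and Gal3st1 (22.5 and 21.8 TPM), with Gal3st2 and Gal3st2b below 1 TPM. Of 13 genes listed for glycan removal 12 were detected, among them the lysosomal genes Ctsa (229 and 221 TPM) and Glb1 (149 and 132 TPM). The sialidase gene Neu4 was listed at 0. Not all 13 code for enzymes that remove sugars, and Ctsa does not. All 15 genes of Golgi retention and trafficking were detected, led by Arf1 (572 and 581 TPM), Gorasp2 (143 and 136 TPM) and Golgb1 (76.0 and 78.1 TPM). Lectins, which bind the finished chains, split widely, with 6 of 16 detected. The galectin genes Lgals4 (1321 and 1235 TPM), Lgals2 (925 and 966 TPM) and Lgals1 (827 and 887 TPM) stood above every one of the 79 glycosyltransferases, and 8 lectin genes, such as Mgl2 and Cd22, were below 1 TPM in both libraries. Over all 10 lists 121 of 146 measured genes were detected.

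**Figure D5:**
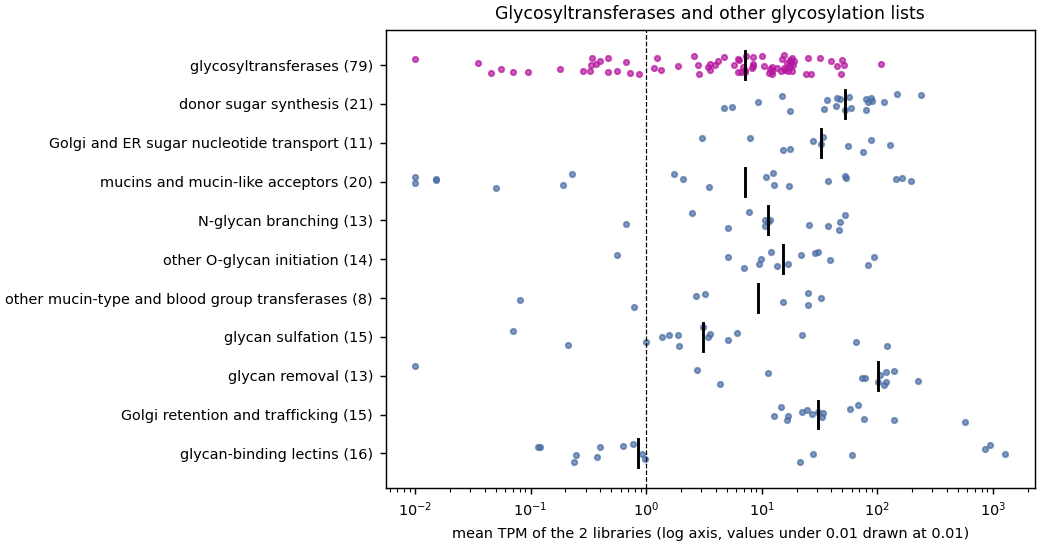
Mean TPM of each gene (log axis) in the 79 glycosyltransferases and in 10 other glycosylation lists, with the number of measured genes in brackets. Each point is a gene, black bars mark the median of the list, and the dashed line marks 1 TPM. The donor, transport and Golgi trafficking lists lie wholly above 1 TPM, while the glycosyltransferases reach to 0, drawn at 0.01.

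A RefSeq promoter window was matched for 58 of the 79 genes, and the first listed window of each gene was used here to describe base content. These windows need not be the promoter in use. Even the nearest listed RefSeq start lay within 50 bases of the start of the leading transcript in only 37 of the 58 genes. These were 32 of the 43 detected members and 5 of the 15 others. The median ratio of observed to expected CpG dinucleotides was 0.74 in the 43 detected members with a window and 0.49 in the 15 others, beside 0.75 in detected and 0.21 in other protein-coding genes. The GC box letters GGGCGG occurred on either strand in 30 of 43 detected members (69.8%) and 8 of 15 others (53.3%), beside 63.9 and 19.9% of detected and other protein-coding genes. The TATA box letters TATAAA occurred in 2 of 58 members (3.45%), beside 12.6% of all promoters, and the letters CCAAT in 19 of 58 (32.8%), beside 38.6%. A match of letters is a description and not a binding site.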

How the data were processed

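Total RNA over 200 bases (10 ng per library) was made into cDNA with a SMARTer Ultra Low kit and sequenced, per the labels' protocols. The authors deposited 1 gene table and 1 transcript table per library, holding estimated counts, TPM and FPKM values, isoform percent of the gene, and the bounds of a TPM interval of unstated level (entered as score). Per the deposited readme, alignment was to mm10 with GENCODE M4. The quantifier, its strand setting and the interval level are not given in the sources used, and TPM was deposited over all entries with spike-ins included (2.16 and 1.76% of counts).

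Gene names, types and positions were taken from GENCODE M21 by Ensembl ID, without version, on the same assembly, and promoter windows from RefSeq (GRCm38.p6). Ratios are of TPM + 1, replicate 1 over replicate 2, for genes with a mean of at least 1 TPM. The ratio calls were tested on simulated data. Overlap with other genes was searched with 31-base words of M21 transcripts on both strands. Alternatives changed the detection limit, pseudocount, unit, scaling (edgeR 4.0.16, DESeq2 1.42.0 size factors) and the library used. The main work used Python 3.11.15 and R 4.3.3.

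The libraries differed far beyond counting error (chi-square per degree of freedom 18.3 over 19707 genes), so they are not 1 library deposited again, and both belong to 1 group. Spread is between 2 pools of embryos, and no p-value is given. Count floors cover counting error only. Values are printed for the 4 highest genes of each role, every member of at least 10 TPM, and the 3 members on each side of 1 TPM in the lower library. These were St8sia1, B4galnt3 and Galnt5 above and B3galt5, Gcnt7 and St8sia5 below. In each of the 10 pathway lists the 3 highest genes and up to 3 below 1 TPM are named, except for some not reported here. The name rule uses no measured value, but it and all lists were chosen with earlier results of these data known.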

Additional observations from a re-analysis of the deposited data

How the results depend on the processing

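Detection depended on the limit, since 59 members were detected at 1 TPM, 32 at 10 TPM, 63 at 0.5 TPM and 56 at 2 TPM, and 59 to 60 from either library alone. The count over 2-fold apart was 0, and became 1 (B3galt5) with no pseudocount. The summed level, 953 TPM on average, was 948 from posterior means, 659 as FPKM and 995 with TPM rescaled over Ensembl genes, and 950.4 to 955 from single libraries. The mean level of FPKM differs by construction. The median share held by the highest gene of a role was 30.7%, became 33.4% from counts not divided by length, and ranged from 28.7 to 31.7% with 1 library left out. By counts the share of St6galnac3 in its role was 8.81% and that of C1galt1c1 46.4%. The median share of the leading transcript over the 28 members named with several transcripts was 72.7%, became 68.4% from posterior means, and was 71.3 to 71.4% from single libraries. The cause was not tested. Of the 146 pathway genes, 121 were detected at 1 TPM and 121 to 124 from single libraries. No paired analysis was possible because there is only 1 group. Depth limits the genes near 3 counts, such as B3gnt6, St6galnac1 and Fut7.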
